A study of Caenorhabditis elegans with 6 samples.

Results

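The numbered cuticle collagens of Caenorhabditis elegans are the collagen genes named col- followed by a number, and 159 of the 46739 features listed carried such a name. They were compared between wild-type N2 L4 larvae fed bacteria with the empty vector (no worm gene is targeted) and larvae fed bacteria making double-stranded RNA against rab-11.1, which encodes a small GTPase of recycling endosomes. Each group had 3 libraries of polyadenylated RNA from whole worms, which the labels number 1 to 3 as biological replicates; those of the rab-11.1 group are called RNAi replicates here. All worms carried the wild-type genotype, grew at 20 °C on HT115 bacteria and received RNAi throughout development. Nothing in the labels says whether replicates came from separate cultures, so p-values measure the spread between these libraries. In whole-animal RNA, fewer epidermal cells and less collagen RNA per cell cannot be told apart.

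Cuticle collagens are short secreted proteins built around Gly-X-Y repeats that wind into triple helices. The epidermis secretes them apically, cuts and cross-links them, and lays them down as the cuticle. A new cuticle is made before each moult, and collagen genes are transcribed in successive waves within the moulting cycle, so that a set of genes marks a time as well as a stage. Adults make a cuticle partly from collagens that larvae lack, while other numbered collagens belong to the dauer larva or recur at every moult. The numbers record the order of naming and not a function, and for most members no single role is established. The genes resemble each other closely, so a read may match several of them, and the sources used here do not say how such reads were assigned.

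The libraries held 22946375 to 30183162 reads, recovered from the steps between low values. Levels are in RPKM, read counts divided by transcript length and library depth, and 3 reads on 1 kb stood for 0.0994 to 0.131 RPKM. The target rab-11.1 stood at 411, 398 and 410 RPKM in empty vector replicates 1, 2 and 3 and at 151 and 138 RPKM in RNAi replicates 1 and 2. In the library labelled RNAi replicate 3 it stood at 633 RPKM, above every empty vector library. The rab-11.1 level of that library thus goes against its label, for a reason that was not tested. Every direction given for the RNAi group includes that library. Across all features tested, replicate 2 of each group deviated from its group mean in a like way (correlation 0.62 across genes), and empty vector replicate 2 is therefore also described on its own. Markers of epidermis (dpy-7, elt-3, nhr-25, wrt-10 and rol-6), intestine, muscle, pharynx, neurons and germline were all above 0 in every library.

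The numbered collagens ranged from members listed at 0 to means above 1000 RPKM. By mean RPKM over the 6 libraries, 12 members stood at 1000 or more, 55 at 100 to 1000, 31 at 10 to 100, 17 at 1 to 10 and 44 below 1. All members together took 6.80%, 6.01% and 6.30% of the summed RPKM in empty vector replicates 1, 2 and 3. They took 4.90% and 5.03% in RNAi replicates 1 and 2 and 5.41% in the library labelled replicate 3. The RNAi libraries thus lay below all empty vector libraries in this share, without overlap. The median RPKM of the members tested below did overlap. It was 245, 106 and 208 in empty vector replicates 1, 2 and 3. In RNAi replicates 1 and 2 it was 76.2 and 85.6, and 118 in the library labelled replicate 3.

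Of the 159 members, 114 passed the filter of 1 RPKM in at least 3 libraries and were tested, and 45 were not. Of these 45, 8 were listed at 0 in every library, and no value of the others exceeded 1.6 RPKM. Only col-143 passed the filter through the libraries of a single group, the empty vector, so it could be counted as falling but hardly as rising. The annotation lists 156 members as protein coding, and col-66, col-136 and col-182 are pseudogenes in RefSeq. The members lie on all chromosomes, 22 on I, 24 on II, 12 on III, 42 on IV, 31 on V and 28 on X.

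**Figure D1:**
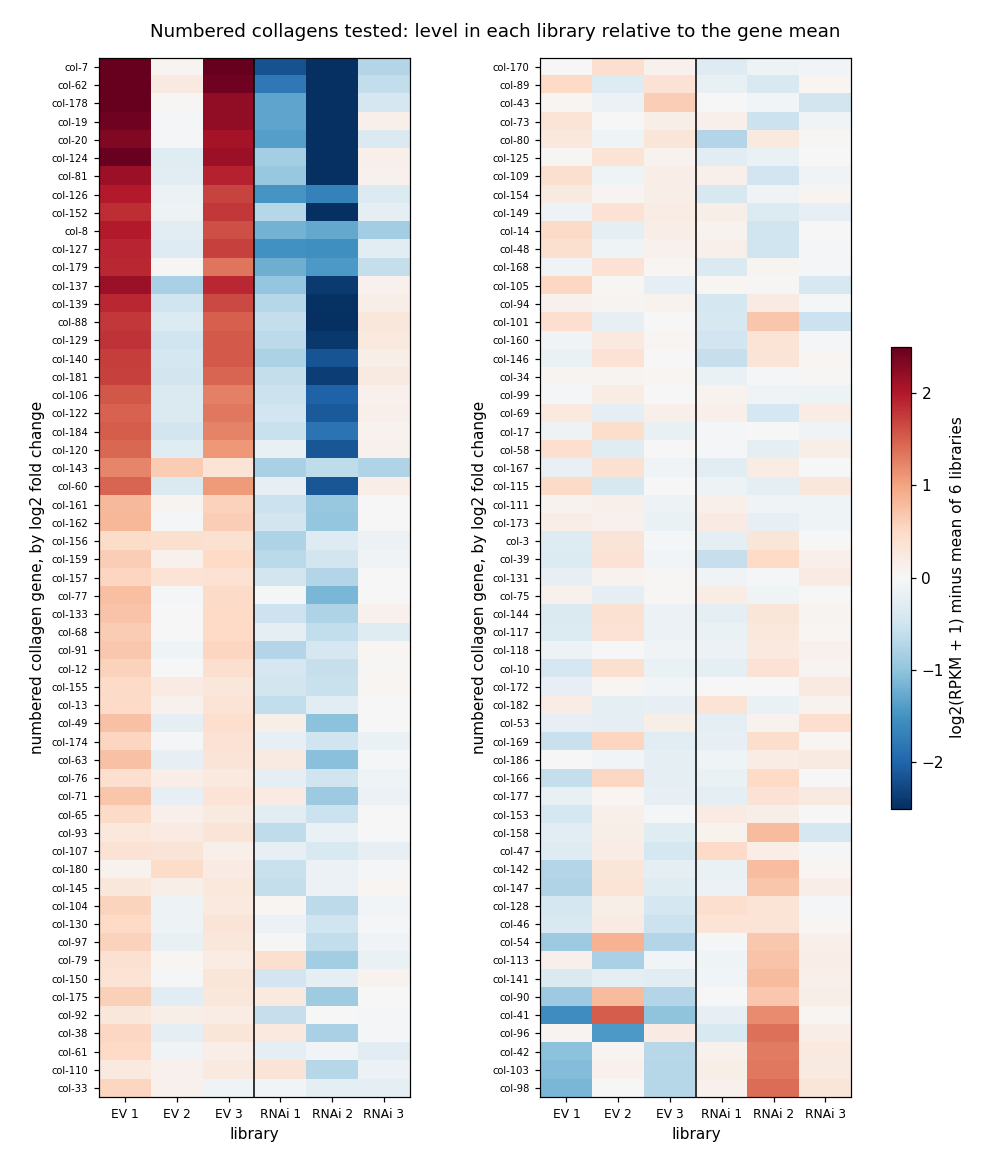
Each row is one of the 114 numbered collagens tested and each column a library (EV, empty vector; RNAi, rab-11.1 RNAi), coloured by log2(RPKM + 1) minus the mean of the 6 libraries, with genes ordered by log2 fold change from the top left to the bottom right. The top 24 genes of the left panel are mostly high in EV 1 and EV 3, near the middle in EV 2 and lowest in RNAi 2, and the bottom of the right panel shows the smaller set, among it col-98, that is lowest in EV 1 and highest in RNAi 2.

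Most numbered collagens stood lower after rab-11.1 RNAi. Of the 114 tested, 83 had a negative and 31 a positive log2 fold change on log2(RPKM + 1), and their median was -0.36 against 0.09 over all features tested. Past an adjusted p of 0.05 by limma, 9 fell (7.89% of the members tested, where 1.07% of all 13833 features tested were called lower). None rose, where 7.93% of all features tested were called higher. At an unadjusted p under 0.05 by limma 41 members were lower and 5 higher, where 682 and 2994 of all 13833 features tested were. With the replicate number as a block, which removes what libraries of the same number share, 53 members fell and 6 rose (46.5% and 5.26% of the members tested). In that fit 4.47% of all features tested were called lower and 16.5% higher. Libraries numbered 1 and 3 also correlated across numbers between the groups, so the pairing that the block assumes is not established. The 3 RNAi libraries lay below the 3 empty vector libraries in 27 members (23.7%, against 6.53% of all features tested) and above them in 4 (3.51%, against 27.4%). Dividing by median-of-ratios factors moved the median of all features by -0.11 on the log2 scale and gave 12 lower members and 0 higher (2.06% and 4% of all features tested), and with the block as well 60 and 5 (8.64% and 10.2%).

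The count without the block changed when a single library was left out, and the share of all features called fell each time as well. Without empty vector replicate 2 it was 13 lower and 3 higher (col-46, col-54 and col-90), where 0.911% and 6.84% of all features tested were called. Without the library labelled RNAi replicate 3 it was 6 lower and 0 higher (0.596% and 4.17%). A single member was called lower and 0 higher without empty vector replicate 3 (col-107; 0.146% and 1.93%), RNAi replicate 1 (col-156; 0.221% and 2.66%) or RNAi replicate 2 (col-143; 0.551% and 4.45%). Without empty vector replicate 1 limma called 0 either way (0.168% and 2.34%). There 24 members were at an unadjusted p under 0.05, a count with no share over all features beside it. None of the 9 calls survived all of these fits, in which the median log2 fold change of the members tested was -0.44 to -0.27. With all 6 libraries, 3 members were lower and 1 higher with no filter (0.498% and 4.34% of all features tested), and 3 lower and 0 higher without the trended and robust settings of limma (0.694% and 6.39%).

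**Figure D2:**
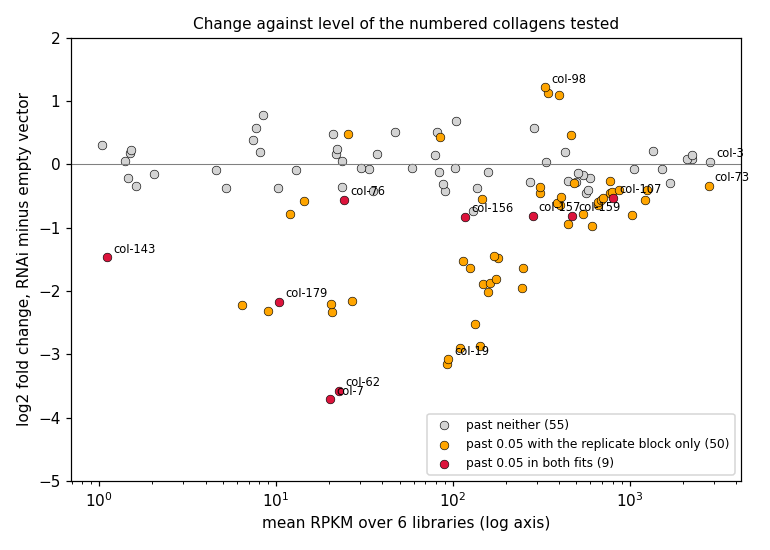
Each point is a tested numbered collagen, placed by its mean RPKM over 6 libraries (log axis) and its log2 fold change (RNAi minus empty vector, on log2(RPKM + 1)), and coloured by the limma fit in which its adjusted p was under 0.05. The 9 genes past the threshold in both fits span mean levels from 1.11 RPKM (col-143) to 804 RPKM (col-107), and the 24 genes with changes of -1.44 or below all have means of 249 RPKM or less.

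On log2(RPKM + 1) the most negative fold changes were those of the adult collagens col-7 and col-62. The genes col-7, col-19 and col-62 are known as adult cuticle collagens, switched on as the larval epidermis turns adult. The gene col-7 (WBGene00000596, WBcel235 chromosome I, 7401132 to 7402761, plus strand) stood at 59.5, 7.61 and 48.8 RPKM in empty vector replicates 1, 2 and 3, and at 0.811 and 0.294 RPKM in RNAi replicates 1 and 2 and 3.90 RPKM in the library labelled replicate 3. Every RNAi library was below every empty vector library, and empty vector replicate 2 was far nearer to the RNAi libraries than replicates 1 and 3 were. The mean fell 23.2-fold, from 38.6 ± 27.4 to 1.67 ± 1.95 RPKM (SD, n = 3), with a log2 fold change of -3.71 (SE 0.82, limma adjusted p = 0.0388). Leaving out any single library except empty vector replicate 2 ended that call (adjusted p up to 0.153).

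Its convergent neighbour col-62 (WBGene00000638, chromosome I, 7403291 to 7404374, minus strand) followed the same order of libraries. It stood at 64.7, 10.8 and 52.8 RPKM with the empty vector, at 1.93 and 0.270 RPKM in RNAi replicates 1 and 2 and at 5.57 RPKM in the library labelled replicate 3. The groups did not overlap, and the mean fell 16.5-fold (log2 fold change -3.58, SE 0.80, limma adjusted p = 0.0403). The call of col-62 held without empty vector replicate 2 and without the library labelled RNAi replicate 3, and ended without any other single library (adjusted p up to 0.157).

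The gene col-19 (WBGene00000608, chromosome X, 421707 to 422691, plus strand), widely used as a reporter of the adult epidermis, stood at 244, 43.6 and 210.5 RPKM with the empty vector. It stood at 17.2 and 3.24 RPKM in RNAi replicates 1 and 2 and at 48.6 RPKM in the library labelled replicate 3. Here the groups overlapped, since that library lay above empty vector replicate 2. The mean was 7.21-fold lower and missed the threshold (log2 fold change -3.08, SE 0.99, limma adjusted p = 0.107), whereas it passed with the replicate block (SE 0.31, adjusted p = 0.00358). With the block, col-19 also passed without both replicate 3 libraries (limma adjusted p = 0.00354) but not without both replicate 2 libraries (0.169). In that last fit col-7 and col-62 did not pass either (limma adjusted p = 0.0758 and 0.0698). Within same-numbered pairs col-19 stood at 0.0705, 0.0744 and 0.231 of its empty vector level.

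**Figure D3:**
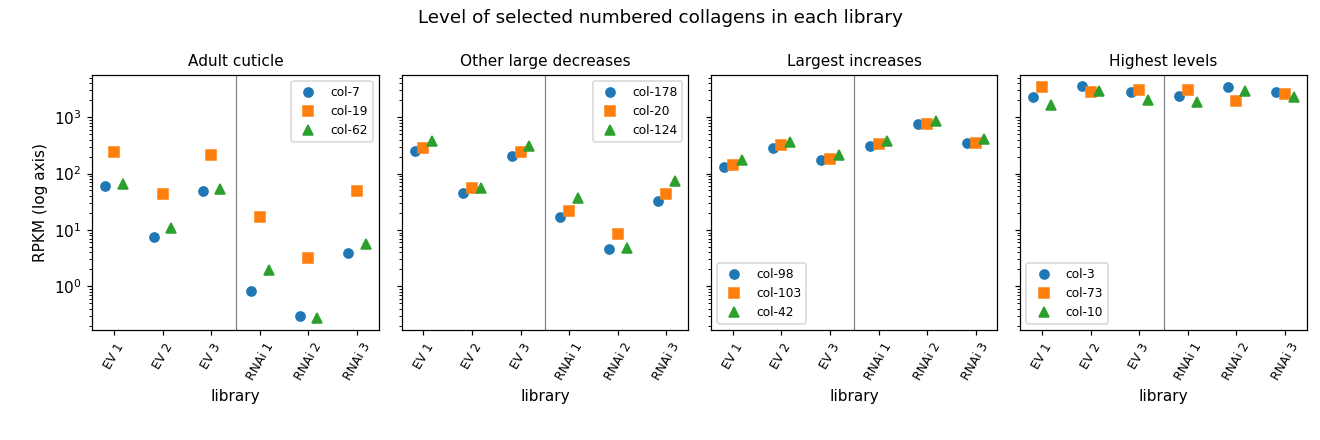
RPKM (log axis) of 12 numbered collagens in each of the 6 libraries, with 1 point per gene and library and no averaging. The adult cuticle genes and the other large decreases are lower in EV 2 than in EV 1 and EV 3 and lowest in RNAi 2, the largest increases are highest in replicate 2 of each group, and col-3, col-73 and col-10 stay between 1612 and 3500 RPKM in all libraries.

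The adult genes were part of a larger set. By mean RPKM 24 of the 114 members tested were lower by a fold of 2 or more (0.882% of all features tested were), 15 of them by 4 or more. The 24 were col-7, col-8, col-19, col-20, col-60, col-62, col-81, col-88, col-106, col-120, col-122, col-124, col-126, col-127, col-129, col-137, col-139, col-140, col-143, col-152, col-178, col-179, col-181 and col-184, with log2 fold changes of -3.71 to -1.44. They were picked by this fold, so the sums and counts that follow describe them and test nothing. Summed, they held 5663, 1245.5 and 4708 RPKM in empty vector replicates 1, 2 and 3, and 1013 and 296 RPKM in RNAi replicates 1 and 2 and 1709 RPKM in the library labelled replicate 3. Empty vector replicate 2 was the lowest of its group in 23 of the 24, RNAi replicate 2 the lowest of its group in 23, and the library labelled RNAi replicate 3 the highest of its group in 23. That library exceeded empty vector replicate 2 in 15, and the groups did not overlap in 9. Over all features tested, the 3 RNAi libraries lay below the 3 empty vector libraries in 6.53%.

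Without the block 4 of these 24 passed by limma, and with it all 24 did (1.07% and 4.47% of all features tested were called lower). The 24 were picked by their fold in the same libraries, so these counts are no separate support. The members col-178, col-20 and col-124, whose individual roles are not established, made up the 6 most negative log2 fold changes together with the adult genes. The gene col-178 (chromosome X, 11199455 to 11200467, plus strand) stood at 251, 44.3 and 205 RPKM with the empty vector, at 16.96 and 4.55 RPKM in RNAi replicates 1 and 2 and at 32.5 RPKM in the library labelled replicate 3. Its groups did not overlap (log2 fold change -3.15, SE 0.84, limma adjusted p = 0.066, and 0.00141 with the replicate block). The gene col-20 (chromosome II, 4869670 to 4870791, minus strand) stood at 287, 54.6 and 245 RPKM, then at 21.3, 8.43 and, in the library labelled replicate 3, 43.8 RPKM, also without overlap. Its log2 fold change was -2.90 (SE 0.76, limma adjusted p = 0.0651, and 0.00217 with the replicate block). Both passed without empty vector replicate 2 (adjusted p = 0.0312 and 0.0249). With the block but without both replicate 2 libraries, col-20 did not pass (limma adjusted p = 0.0768). For col-124 (chromosome IV, 10216451 to 10217617, plus strand), which overlaps qns-1 on the other strand, the groups overlapped, at 382, 55.3 and 302 against 37.5, 4.75 and 74.3 RPKM (log2 fold change -2.87, SE 1.08, limma adjusted p = 0.149, and 0.00283 with the replicate block).

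The members col-10, col-13 and col-120 are known to lengthen the life of the worm when overexpressed. The gene col-120 (chromosome IV, 9260610 to 9261787, minus strand) stood at 376, 111 and 295 RPKM with the empty vector, at 121 and 30.3 RPKM in RNAi replicates 1 and 2 and at 148 RPKM in the library labelled replicate 3. The groups overlapped, since empty vector replicate 2 lay below 2 of the RNAi libraries. The log2 fold change of col-120 was -1.48 (SE 0.68, limma adjusted p = 0.22, and 0.0049 with the replicate block). The gene col-10 (chromosome V, 9164292 to 9165307, minus strand), among the most abundant members, stood at 1612, 2902 and 1970 against 1870, 2845 and 2312 RPKM, with overlapping groups and a log2 fold change of 0.14 (SE 0.24, limma adjusted p = 0.753).

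Of the 9 called members, 5 changed by less than 2-fold. The gene col-107 (WBGene00000681, chromosome IV, 1548721 to 1549714, plus strand) stood at 1009, 987 and 856 RPKM with the empty vector, at 681 and 603 RPKM in RNAi replicates 1 and 2 and at 685 RPKM in the library labelled replicate 3. It fell 1.45-fold, from 951 ± 82.9 to 656 ± 45.9 RPKM (SD, n = 3; log2 fold change -0.53, SE 0.09, limma adjusted p = 0.0208). For col-107 the groups did not overlap and empty vector replicate 2 lay between the other empty vector libraries.

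The gene col-156 (WBGene00000729, chromosome V, 11449219 to 11450357, minus strand) stood at 154, 149 and 146 RPKM against 64.8, 89.9 and, in the library labelled replicate 3, 101 RPKM, without overlap. It fell 1.75-fold (log2 fold change -0.83, SE 0.16, limma adjusted p = 0.0264), but it lies antisense to mig-17, and no source used here says whether counting used the strand. The genes col-157, col-159 and col-76 fell 1.73-fold, 1.75-fold and 1.49-fold (limma adjusted p = 0.0385, 0.0425 and 0.0381), each without overlap between the groups. The gene col-159 shares exon sequence on the same strand with col-160, which had a log2 fold change of -0.14 (adjusted p = 0.71), and no source used here says how reads of the shared stretch were assigned.

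The remaining called members were low or close to the other large decreases. The gene col-179 (chromosome X, 11201465 to 11202485, plus strand), next to col-178 and antisense to C34F6.11, stood at 28.0, 7.11 and 19.1 RPKM against 2.38, 1.92 and, in the library labelled replicate 3, 4.23 RPKM. It fell 6.35-fold without overlap (log2 fold change -2.17, SE 0.47, limma adjusted p = 0.0374). The gene col-143 (chromosome V, 6835635 to 6836704, plus strand) had the smallest adjusted p of all members, although it was near the limit of detection. It stood at 3.26, 1.84 and 1.30 RPKM with the empty vector and at 0.0429, 0.169 and, in the library labelled replicate 3, 0.0784 RPKM, at or near the level of 3 reads on 1 kb. Its log2 fold change was -1.47 (SE 0.24, limma adjusted p = 0.0163), it lies antisense to T15B7.15, and it fell below the filter without any single empty vector library.

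The near neighbours col-12 and col-13 encode collagens made at every moult. The gene col-12 stood at 952, 628 and 840 RPKM with the empty vector, at 474 and 424 RPKM in RNAi replicates 1 and 2 and at 651 RPKM in the library labelled replicate 3. That library lay just above empty vector replicate 2, so the groups of col-12 overlapped (log2 fold change -0.65, SE 0.21, limma adjusted p = 0.103, and 0.024 with the replicate block). The gene col-13 stood at 522, 404 and 473 RPKM against 245, 307 and 371 RPKM, without overlap (log2 fold change -0.61, SE 0.17, limma adjusted p = 0.0707, and 0.0455 with the replicate block). The genes lie next to each other and are close paralogues, so reads may have been shared. For col-14 the groups overlapped, and the log2 fold change was -0.27 (SE 0.22, limma adjusted p = 0.481, and 0.0487 with the replicate block), at 1048, 641 and 852 against 803, 535 and 756 RPKM.

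A small set stood higher after rab-11.1 RNAi. The genes col-98, col-103 and col-42 were the only tested members whose mean was higher by a fold of 2 or more (5.23% of all features tested were). In each the 3 RNAi libraries lay above the 3 empty vector libraries, as they did in 27.4% of all features tested. The gene col-98 (WBGene00000673, chromosome III, 13019008 to 13020226, plus strand) stood at 128, 286 and 172 RPKM with the empty vector, at 306 and 750 RPKM in RNAi replicates 1 and 2 and at 350 RPKM in the library labelled replicate 3. Replicate 2 was the highest library of each group. The difference of 2.40-fold did not pass without the block (log2 fold change 1.22, SE 0.41, limma adjusted p = 0.114) and passed with it (SE 0.09, adjusted p = 0.00176), where 16.5% of all features tested were called higher.

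The genes col-103 and col-42, on chromosomes IV and V, had values close to those of col-98. The gene col-103, antisense to gst-40, stood at 139, 322 and 182 against 331, 739 and 349 RPKM (log2 fold change 1.13, SE 0.40, limma adjusted p = 0.131, and 0.00189 with the replicate block). The gene col-42 stood at 171, 363 and 214 against 375, 854 and 408 RPKM (log2 fold change 1.10, SE 0.38, limma adjusted p = 0.126, and 0.00179 with the replicate block). Within same-numbered pairs the ratios of RNAi to empty vector lay between 1.91 and 2.62 for all 3 genes. With the block col-46, col-142 and col-147 also rose (adjusted p = 0.0459, 0.0181 and 0.0143), by 1.38-fold, 1.35-fold and 1.36-fold, and these were named after their values were seen. All 3 overlap a gene on the other strand. Among all features tested, 16.5% were called higher with the block.

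The other 3 of the 6 most positive members, col-41, col-96 and col-141, passed in neither fit over all 6 libraries. The gene col-41 stood at 26.4, 229 and 39.1 RPKM with the empty vector and at 68.6, 181 and, in the library labelled replicate 3, 81.6 RPKM. Empty vector replicate 2 was thus the highest of all 6, and the log2 fold change of 0.68 did not pass (SE 0.79, limma adjusted p = 0.634), while without both replicate 2 libraries it was 1.19 (adjusted p = 0.0114). The gene col-96 was high in a single library, at 19.8 RPKM in RNAi replicate 2 against 1.95 to 8.20 RPKM in the others (log2 fold change 0.78, SE 0.57, limma adjusted p = 0.439). For col-141 the groups did not overlap, at 5.50, 6.20 and 6.03 against 7.06, 13.5 and 8.12 RPKM, and the test was not passed (log2 fold change 0.57, SE 0.22, limma adjusted p = 0.166).

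None of the 12 members at a mean of 1000 RPKM or more passed by limma without the block, with log2 fold changes of -0.80 to 0.21, and 4 passed with it (col-38, col-71, col-73 and col-77, all lower). Among all features tested, 1.07% were called lower and 7.93% higher without the block, and 4.47% and 16.5% with it. The count of 0 without the block is thus near the background. The gene col-3 (chromosome IV, 8824783 to 8826013, plus strand), with the highest mean of all, stood at 2249, 3500 and 2738 RPKM with the empty vector, at 2372 and 3480 RPKM in RNAi replicates 1 and 2 and at 2811 RPKM in the library labelled replicate 3. In col-3 the ratio of RNAi to empty vector within same-numbered pairs was 0.994 to 1.05, replicate 2 was the highest library of each group, and the log2 fold change was 0.04 (SE 0.20, limma adjusted p = 0.93), or -0.09 with median-of-ratios scaling. Its divergent neighbour col-117 and col-144, a neighbour of col-10, had log2 fold changes of 0.09 and 0.09 (adjusted p = 0.81 and 0.829), which turned to -0.04 and -0.04 with median-of-ratios scaling. The genes col-73 and col-125 had log2 fold changes of -0.34 and -0.30 (SE 0.17 and 0.11, limma adjusted p = 0.272 and 0.152), and col-73 passed with the replicate block (adjusted p = 0.0469).

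At the low end, the dauer collagens col-2 and col-40 were near the floor and untested. With the empty vector col-2 was listed at 0.105, 0.210 and 0 RPKM, and it was at 0, 0 and 0.0838 RPKM in the RNAi libraries. The gene col-40 was at 0.0943 to 0.139 RPKM against 0.247 to 0.445 RPKM. The gene col-44 was listed at 0, 0.291 and 0 RPKM with the empty vector and at 0.905, 1.40 and 1.26 RPKM after RNAi, and was the only member called higher by limma when no filter was used. The gene col-99 encodes a transmembrane collagen rather than a cuticle component, although the naming rule takes it in. It stood at 12.7, 14.8 and 12.8 against 13.9, 12.1 and 11.7 RPKM (log2 fold change -0.09, SE 0.11, limma adjusted p = 0.642) and lies antisense to daf-1.

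Empty vector replicate 2, described on its own, stood apart from the other empty vector libraries in many members. It was at 0.5 or less of the mean of replicates 1 and 3 in 24 of the 114 members tested (21.1%, against 7.37% of all features tested) and at 2 times or more in 4 (3.51%, against 1.5%). The RNAi libraries, which share no sample with the empty vector libraries, showed a like split by number. There replicate 2 was at 0.5 or less of the mean of replicate 1 and the library labelled replicate 3 in 25 members (21.9%, against 5.78%) and at 2 times or more in 8 (7.02%, against 1.99%). The low sets had 20 members in common, 83.3% of the empty vector set and 80.0% of the RNAi set. Across the 114 members the difference of replicate 2 from the others correlated between the groups at a Pearson r of 0.82 (Spearman rho 0.81), and across all 13833 features tested at 0.62 (0.55). These values are across genes of the same 6 libraries, and genes are not independent replicates.

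**Figure D4:**
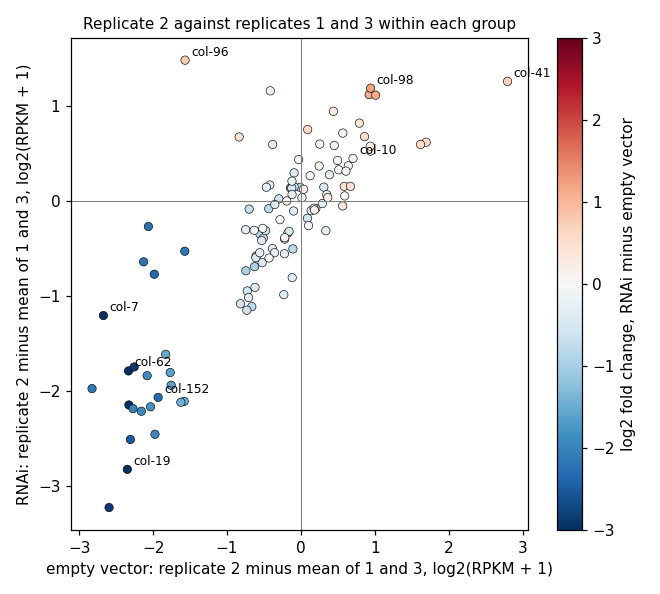
Each point is a tested numbered collagen, with the difference of replicate 2 from the mean of replicates 1 and 3 on log2(RPKM + 1) in the empty vector group (x axis) and in the RNAi group (y axis), coloured by log2 fold change. Genes with the largest decreases after RNAi gather at the lower left, low in replicate 2 of both groups, whereas col-98 lies at the upper right and col-96 is low in replicate 2 of the empty vector group alone.

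Most members were also lower when libraries of the same number were compared. Of the 114 members tested 64 were lower after RNAi in all 3 same-numbered pairs (56.1%, against 19.2% of all features tested) and 10 were higher in all 3 (8.77%, against 40.6%). The median ratio of RNAi to empty vector over the members was 0.694 in pair 1, 0.771 in pair 2 and 0.835 in the pair with the library labelled replicate 3, against 1.07, 1.10 and 1.06 over all features. Members at 0.5 or less of their empty vector level numbered 35, 27 and 23 in these pairs, where 2.17%, 2.54% and 1.16% of all features tested were that low. With both replicate 2 libraries left out 41 members fell and 8 rose by limma (3.48% and 12.3% of all features tested), and 43 of these 49 were also called with the block. With the block but without both replicate 3 libraries, 32 fell and 3 rose, namely col-42, col-98 and col-103 (1.22% and 5.65%). With the block but without both replicate 2 libraries, 25 fell and 14 rose (4.53% and 14.9%).

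Markers of other tissues and of adulthood differed beside these decreases, within the same libraries. Over all features tested, 1.07% were called lower and 7.93% higher, and with the block 4.47% and 16.5%. The summed level of the 6 yolk protein genes vit-1 to vit-6, expressed in the adult intestine, was 1189.9, 252 and 1110.5 RPKM with the empty vector. It was 176 and 171 RPKM in RNAi replicates 1 and 2 and 268 RPKM in the library labelled replicate 3. Of the 6 yolk genes 3 fell, vit-3 to vit-5 (limma adjusted p = 0.0117, 0.0136 and 0.0322), and with the block 4, vit-6 included (adjusted p = 0.0258). With 1 library left out, vit-3 and vit-4 were called in 3 fits each and vit-5 in 1 (limma adjusted p up to 0.063, 0.0721 and 0.127). The 3 germline markers summed to 362, 240.5 and 341 RPKM against 266, 175 and 273 RPKM, with 0 of 3 called and 3 of 3 lower with the block. The 5 epidermal markers summed to 605 to 849 RPKM in the empty vector and 719 to 900 RPKM in the RNAi libraries, which overlap, with positive log2 fold changes in 5 of 5, of which 1 (elt-3) was called and 3 with the block (elt-3, nhr-25 and wrt-10). Of these markers, dpy-7 and rol-6 are also counted as collagens under other names, and elt-3 and nhr-25 as regulators. The lists thus overlap, and the epidermal sum includes collagen RNA. Sums of the 2 muscle markers were 1379 to 1385 RPKM against 986 to 1182 RPKM and of the 2 pharynx markers 75.5 to 82.6 RPKM against 42.3 to 63.7 RPKM, with 0 called and 1 lower in each list with the block. The 3 intestine markers summed to 1168 to 1365 against 922 to 1248 RPKM and the 3 neuron markers to 28.6 to 36.9 against 34.3 to 41.9 RPKM, with 0 called. With the block elt-2, a GATA factor of the intestine, was higher (adjusted p = 0.0307) although the intestine sum was not, and no neuron marker was called. Their part in the collagen result was not tested.

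Several members lie side by side in the genome. Gaps of 10000 bases or less joined 50 of the 159 members into 21 groups of neighbours. In 24 neighbouring pairs with both genes tested, log2 fold changes differed by a median of 0.36, against 0.75 over all pairs of tested members, with no test made. The pairs col-7 and col-62 (-3.71 and -3.58) and col-126 and col-127 (-2.34 and -2.20) had log2 fold changes within that neighbour median of each other. The neighbours col-178 and col-179 (-3.15 and -2.17) were both lower but differed by more than the median over all pairs. On chromosome II, col-20 (-2.90) sat between col-17 (-0.08) and col-73 (-0.34), and on chromosome V col-143 (-1.47) lay beside col-141 (0.57) and col-142 (0.43). The pairs and groups named were chosen after their values were seen. Negative log2 fold changes were found on every chromosome, in 9 of 13 tested on I, 12 of 14 on II, 8 of 11 on III, 23 of 30 on IV, 19 of 27 on V and 12 of 19 on X.

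No collagen under another name passed without the block. Of 24 such genes, among them the furrow collagens dpy-2, dpy-3, dpy-7, dpy-8, dpy-9 and dpy-10 and the basement membrane collagens emb-9 and let-2, 23 were tested. None passed by limma, and their median log2 fold change was -0.10. Among all features tested 1.07% were called lower and 7.93% higher, so the count of 0 is near the background. At an unadjusted p under 0.05 by limma were 2 of the 23, where 682 of all 13833 features tested were lower and 2994 higher. With the replicate block 0 of the 23 rose and 2 fell, where 16.5% and 4.47% of all features tested did. Positive log2 fold changes were found in 8 of the 23, among them all the furrow collagens named, from 0.19 (dpy-3) to 0.38 (dpy-7). All other tested genes of the list had negative ones, among them the body shape collagens dpy-17, dpy-4, dpy-13, lon-3 and dpy-5 (-0.44 to -0.09). The lowest adjusted p values were those of dpy-4, let-2 and dpy-13 (0.138, 0.156 and 0.196), with log2 fold changes of -0.34, -0.32 and -0.26. The calls with the block were bli-6, a cuticle collagen whose mutants blister (adjusted p = 0.0175, log2 fold change -0.51), and let-2 (adjusted p = 0.0411). Whether numbered and otherwise named collagens differ in their change was not tested.

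None of the 13 genes that modify, secrete, cut and cross-link collagen passed. Of these, from the prolyl hydroxylase subunits dpy-18, phy-2 and pdi-2 to the oxidase bli-3 and its partners, 0 passed by limma with or without the replicate block, 0 were at an unadjusted p under 0.05, and the median log2 fold change was 0.06. Among all features tested, 1.07% were called lower and 7.93% higher without the block, and 4.47% and 16.5% with it. The count of 0 without the block is thus near the background. At an unadjusted p under 0.05 by limma, 682 of all 13833 features tested were lower and 2994 higher. Within the list of 13, the lowest adjusted p values were those of doxa-1, bli-3 and dpy-31 (0.228, 0.229 and 0.338), with log2 fold changes of 0.30, 0.16 and 0.24.

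Of 11 regulators of the moult and of adult cuticle genes, 1 rose, 0 fell and 10 had a positive log2 fold change. Over all features tested 7.93% were called higher and the median log2 fold change was 0.09, against 0.25 in this list, so the count of 1 is near the background. The riser was elt-3, a GATA factor of the epidermis, at 15.4, 19.1 and 15.4 RPKM with the empty vector, at 22.95 and 29.97 RPKM in RNAi replicates 1 and 2 and at 24.6 RPKM in the library labelled replicate 3. Its groups did not overlap (log2 fold change 0.60, SE 0.13, limma adjusted p = 0.0385), and leaving out any single library except empty vector replicate 2 ended the call (adjusted p up to 0.154). With median-of-ratios scaling 0 of the 11 passed. The next were grh-1, a Grainyhead factor of the epidermis, and myrf-1, a membrane-bound factor needed for moulting (adjusted p = 0.0875 and 0.0884). With the block 3 rose, elt-3, the nuclear receptor nhr-25 and myrf-1 (adjusted p = 0.00503, 0.0132 and 0.0416), where 16.5% of all features tested were called higher. The regulator lin-29, which drives the larval to adult switch of the epidermis and activates col-19, stood at 19.5 ± 2.25 against 20.7 ± 0.864 RPKM (SD, n = 3; log2 fold change 0.09, SE 0.10, limma adjusted p = 0.617).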

How the data were processed

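Polyadenylated RNA of whole N2 L4 larvae was sequenced in 3 empty vector and 3 rab-11.1 RNAi libraries. The authors deposited RPKM values of 46739 features per library from paired reads, per the file headers. WBcel235 is named in the submitters' processing notes. The sources used here do not name the aligner, counter, strand setting or treatment of reads shared by paralogues. RPKM values are relative to all other RNA of a library, so a change elsewhere shifts them.

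Members were the features named col- and a number. Coordinates came from the Ensembl release 115 annotation of WBcel235, and pseudogene labels from RefSeq. After a filter of 1 RPKM in at least 3 libraries, log2(RPKM + 1) values went into limma 3.58.1 in R 4.3.3 (trended and robust empirical Bayes, two-sided). Benjamini-Hochberg adjustment ran over all 13833 features tested, with a threshold of 0.05. Fold changes on log2(RPKM + 1) understate the change of low genes. No exact permutation test was made, since with 3 libraries a group its p cannot be under 0.1. The fit without the block was tested on simulated data whose libraries shared nothing by number, so that test does not cover the block.

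Both groups carry the same replicate numbers. Each library's deviations from the group means correlated across features between same-numbered libraries at 0.40, 0.62 and 0.35, above 0.1 in every pair, and the block treats the numbers as pairs. Nothing in the labels says what a number shares. Empty vector replicate 1 also correlated (0.46) with the library labelled RNAi replicate 3, and empty vector replicate 3 (0.178) with RNAi replicate 1. The cut of 0.1 thus does not establish that 1 belongs with 1 and 3 with 3. The fit with the replicate block is therefore given beside results it changes. That fit puts more terms on the same 6 libraries, which leaves less to estimate the spread from. Depth was recovered from the steps between low values, and floors of 3 reads cover counting error only.

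The genes named are all members past the threshold, the adult, dauer, moult and lifespan collagens described by role, those with the largest differences either way, and the most abundant. The members and lists were chosen with earlier results of these data known. Alternatives were other pseudocounts, filters, scalings and settings, left-out libraries and the block.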

Additional observations from a re-analysis of the deposited data

How the results depend on the processing

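With another pseudocount, a stricter filter, quantile or median-of-ratios scaling, the count of lower numbered collagens was within 1.5 times of 9. It was 3 with no filter and 3 without the trended and robust settings, where 943 and 980 features in all passed, and it was 53 with the replicate block, 41 without both replicate 2 libraries and 32 with the block but without both replicate 3 libraries. Leaving out 1 library gave 0 to 13. Higher members numbered 1 with no filter, 6 with the block, 8 without both replicate 2 libraries, 3 with the block and without both replicate 3 libraries, and 0 to 3 when 1 library was left out. In 2 alternatives chosen after the data were seen, the block with median-of-ratios scaling gave 60 lower and 5 higher, and the block without both replicate 2 libraries gave 25 lower and 14 higher. The median log2 fold change of members was -0.14 with no filter, where members near 0 enter.

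Collagens under other names past the threshold numbered 2 with the replicate block, 1 without both replicate 2 libraries, 4 with the block and median-of-ratios scaling and 5 with the block and without both replicate 2 libraries. Regulators numbered 0 with no filter, median-of-ratios scaling, quantile scaling or no trended and robust settings, 3 with the block, 3 without both replicate 2 libraries, 2 with the block and median-of-ratios scaling, 3 with the block and without both replicate 2 libraries, and 0 to 2 when 1 library was left out. All features past the threshold numbered 773 with quantile scaling, 2906 with the block, 2119 without both replicate 2 libraries, 2593 with the block and median-of-ratios scaling, 2614 with the block and without both replicate 2 libraries, and 284 to 1063 when 1 library was left out.

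Among the named members, log2 fold changes turned sign in col-3, col-10, col-96, col-99, col-117 and col-144. With median-of-ratios scaling, with or without the block, col-3, col-117 and col-144 stood at -0.09, -0.04 and -0.04. Without empty vector replicate 1, col-3, col-10, col-117 and col-144 stood at -0.12, -0.05, -0.06 and -0.07, and without RNAi replicate 2 at -0.11, -0.01, -0.02 and -0.04. Their highest values with 1 library left out were 0.20, 0.37, 0.29 and 0.30. Without both replicate 2 libraries, with or without the block, col-96 stood at -0.24 and col-99 at 0.00. The cause was not tested. Over all named members 400 values kept direction and side of the threshold, 54 passed it newly, 60 no longer passed and 18 turned sign. Depth limits the 18 members under 3 reads per kb in all libraries.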
